A study of Mus musculus with 6 samples.

Results

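The matrix glycoproteins and proteoglycans other than collagens were described in eEnd2 cells, a mouse endothelial line of embryonic origin, as 49 named genes among the 23420 gene symbols counted. The rule names genes by function and uses no measured value, but the genes were chosen with earlier results of these data known. They comprise fibronectin, the laminin chains, other basement membrane components, elastic fibre proteins, matricellular proteins, the latent TGF-β binding proteins (LTBPs) and proteoglycans. Both groups expressed a human Integrin-β1A chimera carrying GFP in its extracellular part, driven by a short human β-actin promoter: β1-WT-GFP cells carried the wildtype chimera, and β1-K794Q-GFP cells carried one in which lysine is replaced by glutamine to mimic permanent acetylation. There was no treatment, the cells kept their own mouse Integrin-β1, and each group consisted of 3 cultures (A, B and C) of transfected cells sorted for GFP. The labels and methods do not name which sorted population (low or high GFP) a culture came from, and nothing says that the cultures of a group go back to separate transfections, so p values measure the spread between cultures only.

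Endothelial cells lie on a basement membrane, a sheet in which laminins, heterotrimers of an α, a β and a γ chain, polymerise and are tied to collagen IV by nidogens and to heparan sulfate proteoglycans such as perlecan and agrin. Fibronectin is assembled into fibrils by cells pulling on it through α5β1 Integrin, and laminins are bound by α3β1 and α6β1, so that much of this matrix is ligand for receptors containing the β1 chain. Elastic fibres are built of elastin on a fibrillin scaffold with the help of fibulins and emilins. Matricellular proteins such as thrombospondins and tenascins modulate adhesion more than they carry load.

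Total RNA was sequenced after depletion of ribosomal RNA, to between 9589826 and 15287191 counts per culture. Levels are given as CPM, counts scaled to a common library size with TMM factors, always in the order of cultures A, B and C. A count of 0 allows up to 3 counts, which were at least 0.209 and at most 0.29992 CPM here, and this limit covers counting error only. Of 12 endothelial marker genes 11 were above 1 CPM in every culture, with a summed level of 9069 to 9995 CPM in β1-WT-GFP and 7266 to 13788 CPM in β1-K794Q-GFP cultures. The other, Cldn5, a tight junction claudin, was at 267, 252 and 4.74 CPM in β1-WT-GFP and at 17.5, 0 and 24.3 CPM in β1-K794Q-GFP cells. It was thus low in β1-WT-GFP culture C as well. Epithelial markers summed to at most 0.592 CPM. Leukocyte markers summed to 76.5, 88.6 and 37.5 CPM in β1-WT-GFP and to 71.1, 103 and 31.0 CPM in β1-K794Q-GFP cells, which was Cd68, a lysosomal protein gene of macrophages, while Ptprc, for the leukocyte antigen CD45, was at 0.279 CPM or less and Lyz2 at 0. The 11 mesenchymal markers summed to 184, 195 and 82.7 CPM in β1-WT-GFP and to 3.08, 3.85 and 2.58 CPM in β1-K794Q-GFP cells, of which the transcription factor gene Prrx1 made 183, 194 and 56.5 CPM in the former and at most 0.0987 CPM in the latter. Without Prrx1 the sums were 0.612, 1.00 and 26.1 CPM against 2.98, 3.75 and 2.58 CPM. β1-WT-GFP culture C thus stood above the rest, with 16.4 CPM of Pdgfra and 5.92 CPM of Col1a1. Pdgfrb at 2.30 CPM, Acta2 at 1.18 CPM and Cspg4 at 0.279 CPM were also highest in that culture. It had the least Prrx1 of its group and no count of Col1a2, Twist1, Twist2, Des or Rgs5. Col1a2 reached 3.16 CPM in β1-K794Q-GFP culture B. β1-WT-GFP cultures A and B lay closest to each other: 2.14% of all tested genes were at least 2-fold apart between them, while C differed that much from A in 25.9% and from B in 24.4%. Even A and B differed beyond sampling noise, since chi-square divided by its degrees of freedom was 9.70 for this pair and 56.7 to 271 for the other pairs inside a group, and they were counted as separate cultures.

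Expression of the tested genes was compared between the groups to ask which matrix components change when Integrin-β1 carries the acetylation mimetic. A gene was called where edgeR's quasi-likelihood test gave an unadjusted p no higher than 0.05 and the levels differed 2-fold or more. Of the 49 matrix genes 32 passed the filter on low counts and were tested, and 5 of them (15.6%) were called, against 5.19% of the 11608 tested genes. The elastic fibre genes Fbln5 and Emilin1 rose in β1-K794Q-GFP cells, 2 of 32 (6.25%) against 3.48% of all tested genes. Fbln2, Efemp1 and the proteoglycan gene Vcan fell, 3 of 32 (9.38%) against 1.71%. All 3 dropped below 10 counts in β1-K794Q-GFP cultures and passed the filter through their β1-WT-GFP counts, so this share depends on the filter. Where at least 10 counts were required in every culture, 2 of 21 matrix genes were called, against 4.03% of all tested genes. These were Fbln5 and Emilin1. After Benjamini-Hochberg adjustment over all tested genes, edgeR called none of the 32, against 0.181% of all genes. An unadjusted p no higher than 0.05 was found in 6 of the 32, against 1180 of all 11608 tested genes. By the same adjusted threshold DESeq2 called 4 and edgeR's likelihood ratio test 5. For these 2 tools the share of all tested genes is not given here. The 3 cultures of 1 group all lay on one side of the other group in 6 of 32 genes (18.8%), close to the 16.6% of all tested genes; these 6 were the 5 called genes and the laminin gene Lamb2. Fitted log2 fold changes (β1-K794Q-GFP over β1-WT-GFP) had a median of −0.38 over the 32 genes, with 13 above and 19 below 0, and of −0.02 over all tested genes. Their median standard error was 0.95 against 0.30 over all tested genes. The number of called matrix genes was 8 without β1-WT-GFP culture C (8.38% of all tested genes passed then), 7 where β1-K794Q-GFP culture B was left out (7.95%), and 12 where both were (14.2%), a choice made after seeing the data. In bulk RNA, fewer cells that express a gene and less RNA per cell cannot be told apart.

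**Figure D1:**
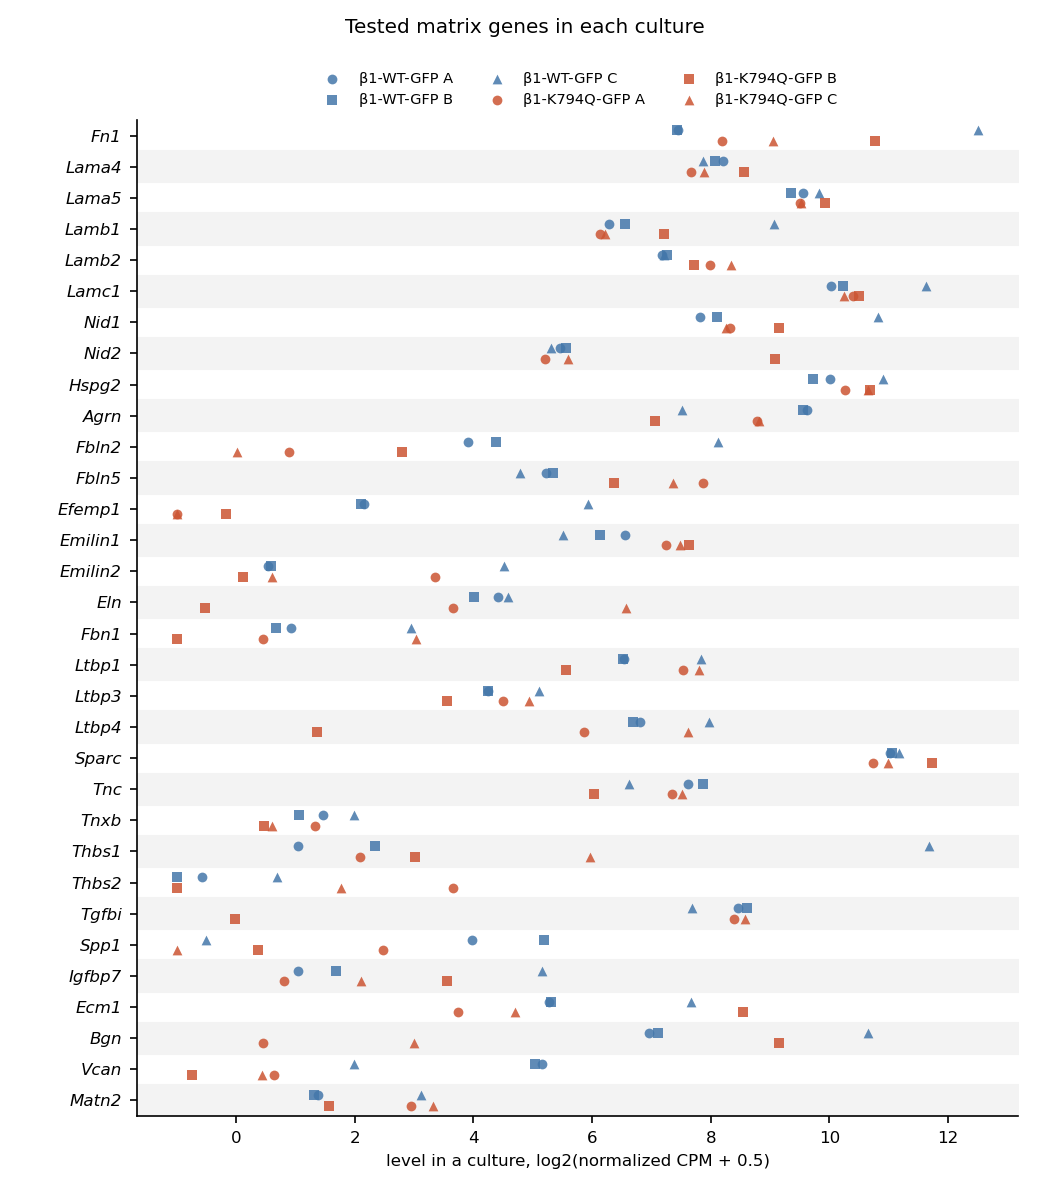
Level of each of the 32 tested matrix genes in each culture, as log2(normalized CPM + 0.5), with blue for β1-WT-GFP and red for β1-K794Q-GFP, and circles, squares and triangles for cultures A, B and C. Sparc, Lamc1, Hspg2 and Lama5 sit at the high end in all 6 cultures, while genes such as Thbs1 and Bgn spread widely inside a group.

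**Figure D2:**
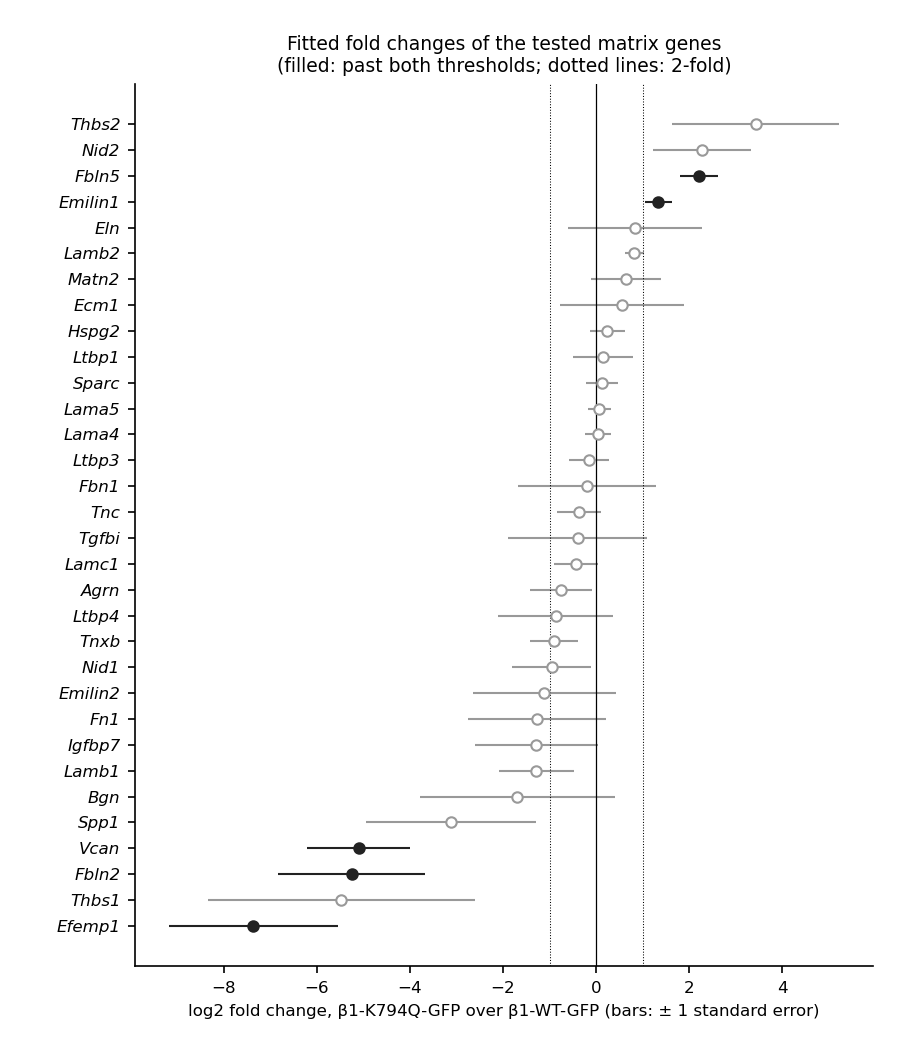
Fitted log2 fold change of each tested matrix gene, β1-K794Q-GFP over β1-WT-GFP, with its standard error as a bar. Filled points are the 5 genes past both thresholds, with Fbln5 and Emilin1 to the right of 0 and Fbln2, Efemp1 and Vcan to the left.

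Among the 11 genes listed as elastic fibre genes, Mmrn1 with no count included, 7 were tested and 4 were called, 2 in each direction. The LTBPs, which bind microfibrils, were counted as a class of their own, with 3 of 4 tested and 0 called. By the same thresholds 5.19% of all tested genes were called, with 3.48% rising and 1.71% falling. Whether the elastic fibre genes as a set differ from all tested genes was not tested. Fbln5 (chr12:101746565-101819055, all gene positions from GENCODE M21 on GRCm38) encodes fibulin-5, an Integrin-binding protein needed for elastic fibre assembly. Its level was 36.7, 40.3 and 27.0 CPM in the β1-WT-GFP cultures and 234, 81.8 and 164 CPM in the β1-K794Q-GFP cultures, with means of 34.7 ± 6.91 and 160 ± 76.1 CPM (SD, n = 3). Every β1-K794Q-GFP culture lay above every β1-WT-GFP culture, with B the lowest of its group. The log2 fold change was 2.21 (SE 0.41), a 4.61-fold rise, with an unadjusted p of 0.00140 and an adjusted p of 0.118 in edgeR's test.

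Emilin1 (chr5:30913402-30921277) encodes an elastic fibre glycoprotein. It stood at 94.0, 69.6 and 45.2 CPM in β1-WT-GFP and at 152, 198 and 179 CPM in β1-K794Q-GFP cells, with means of 69.6 ± 24.4 and 176 ± 23.5 CPM (SD, n = 3). The groups did not overlap, and the β1-K794Q-GFP cultures had the smaller SD relative to their mean. The log2 fold change was 1.34 (SE 0.29), with an unadjusted p of 0.00340 and an adjusted p of 0.169 in edgeR's test.

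Fbln2 (chr6:91212455-91272540), for fibulin-2, a protein of basement membranes and of the elastic fibres of vessel walls, had 14.5, 20.3 and 279 CPM in β1-WT-GFP and 1.35, 6.42 and 0.516 CPM in β1-K794Q-GFP cells. Culture C was far above the other β1-WT-GFP cultures, and still the lowest of them lay above the highest β1-K794Q-GFP culture. The log2 fold change was −5.25 (SE 1.58), with an unadjusted p of 0.0147 and an adjusted p of 0.303 in edgeR's test. Leaving out β1-WT-GFP culture C gave a log2 fold change of −2.65 and the gene was still called. Leaving out β1-K794Q-GFP culture A gave −4.95 with an unadjusted p of 0.0526 in the same edgeR test, just over the threshold.

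Efemp1 (chr11:28853204-28926743) encodes fibulin-3, a short fibulin of the same family. It had 45, 38 and 866 counts in β1-WT-GFP cells and 0, 4 and 0 counts in β1-K794Q-GFP cells, which is 3.94, 3.80 and 60.3 CPM against 0, 0.395 and 0 CPM. The transcript was thus at or near the detection limit in all β1-K794Q-GFP cultures. The fitted log2 fold change of −7.37 (SE 1.82, unadjusted p 0.00596, adjusted p 0.212 in edgeR's test) rests on 4 counts in that group, and leaving out β1-WT-GFP culture C gave −4.80. Efemp1, like Fbln2, was still called in that fit. For both fibulins that fell, the highest level was in β1-WT-GFP culture C. That culture had more Pdgfra and Col1a1 but less Prrx1 than A and B, and the part of these genes in the result was not tested. The mesenchymal transcription factor gene Prrx1, at 183, 194 and 56.5 CPM against at most 0.0987 CPM, was high in the same group as Fbln2, Efemp1 and Vcan, and its part was not tested either.

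The promoters of the 5 called genes are shown because genes of related function moved in opposite directions, from 250 bases before to 50 after the start in RefSeq (GRCm38.p6), 5′ to 3′ on the gene's strand. Capitals mark GGGCGG, or CCGCCC on the opposite strand, and TGANTCA.
Fbln5, chr12:101819070-101819369, - strand: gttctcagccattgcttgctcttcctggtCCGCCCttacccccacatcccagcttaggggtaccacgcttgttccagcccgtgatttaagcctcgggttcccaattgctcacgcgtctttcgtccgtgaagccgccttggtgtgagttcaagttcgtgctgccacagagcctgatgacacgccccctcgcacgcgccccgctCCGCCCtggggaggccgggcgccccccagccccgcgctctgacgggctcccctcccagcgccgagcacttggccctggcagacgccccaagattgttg
Emilin1, chr5:30913536-30913835, + strand: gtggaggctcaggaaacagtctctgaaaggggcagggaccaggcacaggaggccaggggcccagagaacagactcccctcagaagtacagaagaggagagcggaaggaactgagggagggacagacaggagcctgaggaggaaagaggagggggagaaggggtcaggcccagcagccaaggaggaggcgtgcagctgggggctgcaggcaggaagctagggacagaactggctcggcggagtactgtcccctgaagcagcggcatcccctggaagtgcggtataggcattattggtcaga
Fbln2, chr6:91212514-91212813, + strand: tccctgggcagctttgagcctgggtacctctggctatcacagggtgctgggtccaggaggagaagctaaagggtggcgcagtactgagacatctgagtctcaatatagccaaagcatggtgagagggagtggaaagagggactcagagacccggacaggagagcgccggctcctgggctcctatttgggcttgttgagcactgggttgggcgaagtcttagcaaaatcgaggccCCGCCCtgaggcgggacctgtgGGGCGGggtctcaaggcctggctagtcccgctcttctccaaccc
Efemp1, chr11:28852955-28853254, + strand: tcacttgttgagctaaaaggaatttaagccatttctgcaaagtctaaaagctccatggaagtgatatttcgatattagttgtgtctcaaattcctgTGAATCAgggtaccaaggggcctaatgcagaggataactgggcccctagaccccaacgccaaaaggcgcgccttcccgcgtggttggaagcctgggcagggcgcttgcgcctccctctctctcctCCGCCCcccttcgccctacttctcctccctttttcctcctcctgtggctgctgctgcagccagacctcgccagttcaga
Vcan, chr13:89742463-89742762, - strand: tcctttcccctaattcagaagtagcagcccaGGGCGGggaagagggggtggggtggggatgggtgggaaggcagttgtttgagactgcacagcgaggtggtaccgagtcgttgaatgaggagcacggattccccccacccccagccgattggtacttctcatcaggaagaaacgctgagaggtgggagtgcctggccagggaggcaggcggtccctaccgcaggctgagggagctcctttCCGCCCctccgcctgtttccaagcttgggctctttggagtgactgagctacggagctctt
RefSeq promoters were matched for 35 of the 49 genes, and Fbln5 has 2, of which the first listed is shown. GGGCGG, the GC box, was found on either strand 2 times each in Fbln5, Fbln2 and Vcan, 1 time in Efemp1 and not in Emilin1, and is held by 35.7% of 32851 promoters. TGANTCA, a pattern wider than the AP-1 consensus TGA(G/C)TCA, was found in Efemp1 alone of these and is held by 7.81% of promoters. The Efemp1 match, TGAATCA, is not that consensus. Neither TATAAA (13.6% of promoters) nor GGAATG, the TEAD motif (14.7%), was found in any of the 5, which says only that these letters are not in these windows. Their GC content was 54.3% in Efemp1, 60.3% in Fbln2, 61% in Vcan, 61.7% in Emilin1 and 65.7% in Fbln5. The 10 tested genes on each side of a called gene had median log2 fold changes of −0.05 for Fbln5, −0.06 for Emilin1, 0.06 for Fbln2, −0.02 for Efemp1 and −0.12 for Vcan. Genes around them therefore lay near 0.

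The other tested elastic fibre genes did not pass the test. Eln, for elastin, the rubber-like core of the fibre, had 20.9, 15.6 and 23.4 CPM in β1-WT-GFP and 12.1, 0.197 and 94.9 CPM in β1-K794Q-GFP cells. The β1-K794Q-GFP cultures lay below, far below and above the β1-WT-GFP range, and the log2 fold change was 0.84 (SE 1.43). Fbn1, for the fibrillin of the microfibril scaffold, stayed between 0 and 7.65 CPM with a log2 fold change of −0.20 (SE 1.49). Emilin2, a relative of Emilin1, had 22.4 CPM in β1-WT-GFP culture C, 9.72 CPM in β1-K794Q-GFP culture A and about 1 CPM or less in the others, with a log2 fold change of −1.11 (SE 1.54). Of the 4 elastic fibre genes under the filter, Efemp2, for fibulin-4, had 7, 5 and 6 counts against 1, 0 and 2 counts. Its groups do not overlap, at levels left out of the main test. In the fit without a filter Efemp2 was called, on these few counts. The LTBPs, which tether latent TGF-β to microfibrils, had 3 of 4 genes tested and none called. Ltbp1 was at 92.5, 90.9 and 227 CPM against 186, 46.8 and 223 CPM, and Ltbp3 at 18.5, 18.5 and 33.8 CPM against 22.05, 11.3 and 30.2 CPM. Ltbp4, which acts with fibulins in elastic fibre assembly, was at 112, 103 and 250 CPM against 58.0, 2.07 and 195 CPM. In each of these, β1-K794Q-GFP culture B was the lowest of the 6.

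Proteoglycans carry long sulfated sugar chains that hold water and bind growth factors. Vcan (chr13:89655312-89742509), for versican, a large proteoglycan of loose, provisional matrix, had 402, 325 and 50 counts in β1-WT-GFP and 11, 1 and 10 counts in β1-K794Q-GFP cells. In CPM these were 35.2, 32.5 and 3.48 against 1.06, 0.0987 and 0.860. β1-WT-GFP culture C was 9.71 times below the mean of A and B and still above every β1-K794Q-GFP culture. The log2 fold change was −5.11 (SE 1.12), with an unadjusted p of 0.00331 and an adjusted p of 0.168 in edgeR's test. On the opposite strand the Vcan locus overlaps a pseudogene, Gm16318, and an antisense gene, Gm4117, and whether reads were counted by strand is not given in the sources used here. Bgn, for biglycan, a small leucine-rich proteoglycan, had 124, 137 and 1600 CPM in β1-WT-GFP and 0.867, 567 and 7.48 CPM in β1-K794Q-GFP cells. Culture B thus differed from its own group by more than the groups did, and the log2 fold change of −1.70 (SE 2.10) did not pass the test. Without that culture it was −7.22 and the gene was called, and without β1-WT-GFP culture C it turned to 0.56. Lum, for lumican, had no count in any culture.

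**Figure D3:**
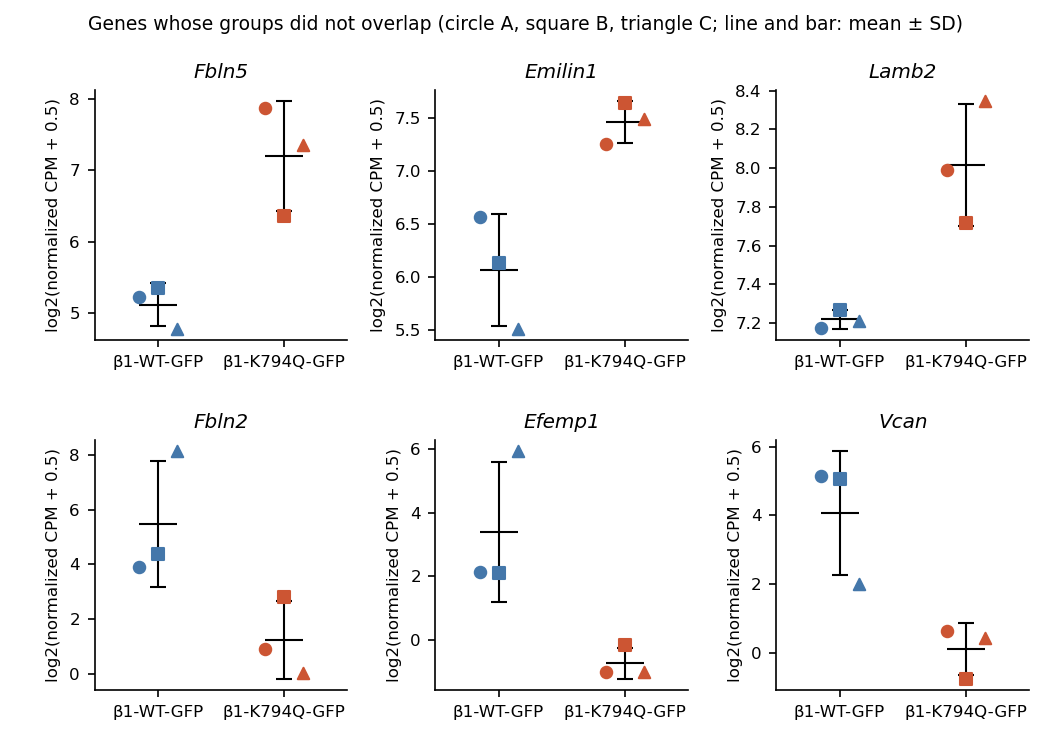
Level of the 6 tested matrix genes whose groups did not overlap, as log2(normalized CPM + 0.5) on axes that do not start at 0, in each culture of β1-WT-GFP (blue) and β1-K794Q-GFP (red). Lines and bars are the mean ± SD of the log2 values of 3 cultures; Fbln5, Emilin1 and Lamb2 lie higher in β1-K794Q-GFP cells and Fbln2, Efemp1 and Vcan lower.

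None of the 5 tested laminin chain genes was called. Endothelial laminins combine α4 (Lama4) or α5 (Lama5) with β1 (Lamb1) or β2 (Lamb2) and γ1 (Lamc1). Lamb2 (chr9:108479736-108490530) was at 144, 154 and 148 CPM in β1-WT-GFP and at 254, 210 and 324 CPM in β1-K794Q-GFP cells, means of 149 ± 4.95 and 263 ± 57.8 CPM (SD, n = 3). All β1-K794Q-GFP cultures lay above all β1-WT-GFP cultures, which were nearly equal. The log2 fold change of 0.82 (SE 0.21), a 1.77-fold difference, stayed under the 2-fold threshold, with an unadjusted p of 0.00706 and an adjusted p of 0.228 in edgeR's test. Leaving out each culture in turn gave log2 fold changes from 0.64 to 0.96.

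Lamb1, for the other β chain, was at 77.4, 93.6 and 537 CPM against 69.7, 147 and 73.7 CPM, with a log2 fold change of −1.29 (SE 0.81). Lama4 was at 294, 270 and 232 CPM against 204, 376 and 237 CPM, and Lama5 at 754, 654 and 905 CPM against 723, 966 and 732 CPM. For these α chains the groups overlapped, and the log2 fold changes were 0.04 (SE 0.28) and 0.07 (SE 0.25). Lamc1, the shared γ chain, was at 1040, 1200 and 3174 CPM against 1356, 1446 and 1214 CPM, a log2 fold change of −0.43 (SE 0.48). β1-WT-GFP culture C was the highest of the 6 in Lamb1 and Lamc1. The median log2 fold change of the 20 tested genes beside Lamc1 was −0.66, further from 0 than that of Lamc1 itself.

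Levels were compared between chains per kb of exon. In every culture Lama5 was the main α chain and Lama4 the other, with Lama4 at 26.9, 28.0 and 19.5% of α chain transcripts in β1-WT-GFP and at 21.0, 26.9 and 23.4% in β1-K794Q-GFP cells. The means differed by −1.04 percentage points, with overlapping groups (exact permutation test, two-sided, p = 0.8; adjusted over 16 such measures 0.985). Lamb2 was 75.2, 72.8 and 30.9% of β chain transcripts against 85.6, 70.0 and 87.8%. It was the main β chain except in β1-WT-GFP culture C, where Lamb1 exceeded it, and the mean difference of 21.4 percentage points was not beyond the spread (exact permutation p = 0.3, adjusted 0.914). Transcripts of γ1 outnumbered both other chains, at 126, 145 and 384 CPM per kb against 164, 175 and 147 CPM per kb. The ratio of β to γ transcripts per kb was 0.250, 0.239 and 0.204 in β1-WT-GFP and 0.297, 0.282 and 0.414 in β1-K794Q-GFP cells. These did not overlap, which gives the smallest p that 3 cultures against 3 allow (exact permutation p = 0.1, adjusted 0.8). The remaining chains Lama1, Lama2 and Lamc3 had at most 9 counts in any culture.

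**Figure D4:**
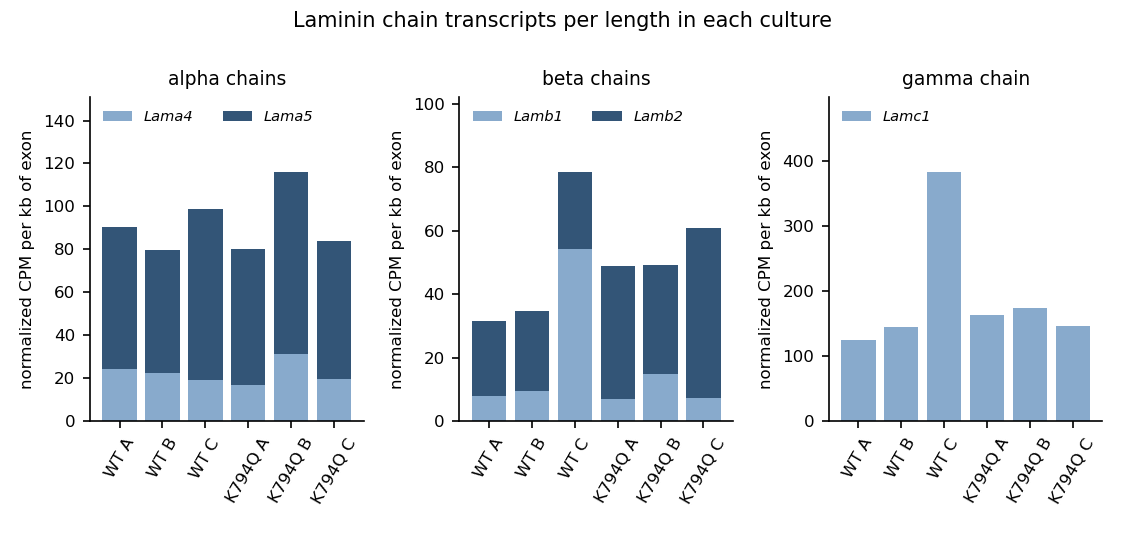
Transcripts of the laminin α, β and γ chains in each culture as stacked bars, in normalized CPM per kb of exon from 0. Lama5 exceeds Lama4 in every culture, and Lamb1 exceeds Lamb2 only in β1-WT-GFP culture C, which also has the tallest γ1 bar.

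Fn1 (chr1:71585520-71653200), for fibronectin, was at 174, 172 and 5833 CPM in β1-WT-GFP and at 292, 1737 and 528 CPM in β1-K794Q-GFP cells. β1-WT-GFP culture C was 33.8 times the mean of A and B, and above all β1-K794Q-GFP cultures, which in turn lay above A and B. The log2 fold change of −1.27 (SE 1.48) did not pass the test (edgeR, adjusted p 0.866). Without culture C it turned to 2.31 and the gene was then called at both thresholds (unadjusted p 0.0369, adjusted p 0.271 in the same edgeR test). The direction of the fibronectin difference therefore rested on 1 culture, β1-WT-GFP culture C, and what set that culture apart was not tested.

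The 4 basement membrane genes beside the laminins were all tested, and none was called. Nid1, for nidogen-1, which links laminin to collagen IV, was at 224, 274 and 1805 CPM against 322, 565 and 304 CPM. Its relative Nid2 was at 43.4, 47.0 and 38.9 CPM against 36.5, 540 and 47.6 CPM. Each of the nidogens thus stood out in 1 culture, β1-WT-GFP culture C for Nid1 and β1-K794Q-GFP culture B for Nid2. Their log2 fold changes were −0.95 (SE 0.85) and 2.27 (SE 1.06), and without culture B that of Nid2 was −0.03. Nid2 was called with β1-K794Q-GFP culture A left out (2.76, unadjusted p 0.0274 in edgeR's test) and with culture C left out (2.74, unadjusted p 0.0368). Hspg2, for perlecan, was at 1033, 840 and 1920 CPM against 1231, 1653 and 1597 CPM, with a log2 fold change of 0.24 (SE 0.38). Agrn, for agrin, the other basement membrane heparan sulfate proteoglycan, was at 790, 748 and 183 CPM against 441, 134 and 447 CPM, with a log2 fold change of −0.75 (SE 0.68). It was lowest in the very cultures in which the nidogens stood out.

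Of the 14 matricellular genes 9 were tested and none was called. Sparc, a collagen-binding glycoprotein, was at 2082, 2125 and 2313 CPM in β1-WT-GFP and at 1712, 3399 and 2039 CPM in β1-K794Q-GFP cells, with a log2 fold change of 0.13 (SE 0.34). Per kb of exon it was the most abundant of the 49 genes in every culture, at 452 to 897 CPM per kb. Thbs1 (chr2:118111876-118127133), for thrombospondin-1, an inhibitor of angiogenesis, was at 1.57, 4.60 and 3261 CPM against 3.75, 7.60 and 62.0 CPM. β1-WT-GFP culture C was 1056 times the mean of A and B. The log2 fold change of −5.47 (SE 2.88; adjusted p 0.619 in edgeR's test) became 3.00 without that culture, so that its direction rested on culture C alone. Thbs2 reached 12.1 CPM in β1-K794Q-GFP culture A and stayed at or under 2.92 CPM elsewhere. Its log2 fold change was 3.44 (SE 1.80), and with β1-K794Q-GFP culture B left out it was 4.0 and the gene was called (unadjusted p 0.0241 in edgeR's test).

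Tnc, for tenascin-C, was at 197, 232 and 98.4 CPM against 163, 64.9 and 182 CPM, and Tnxb, for tenascin-X, at 3.48 CPM or less throughout. Tgfbi, for a TGF-β induced Integrin ligand, was at 350, 390 and 205 CPM against 336, 0.493 and 380 CPM. Only 5 counts of Tgfbi were found in β1-K794Q-GFP culture B, and without it the log2 fold change was 0.19 in place of −0.40. Spp1, for osteopontin, was at 15.31, 36.1 and 0.209 CPM against 5.10, 0.790 and 0 CPM, with a log2 fold change of −3.13 (SE 1.83). Igfbp7, which encodes a secreted protein of vessel basement membranes, was at 1.57, 2.699 and 35.2 CPM against 1.25, 11.3 and 3.78 CPM. Ecm1, for extracellular matrix protein 1, was at 38.2, 39.2 and 203 CPM against 12.9, 372 and 25.5 CPM. The last pair share the pattern of Bgn, in that β1-WT-GFP culture C and β1-K794Q-GFP culture B were the highest of their groups. Matn2, for matrilin-2, a filament-forming adaptor, was at 2.10, 2.00 and 8.15 CPM against 7.22, 2.47 and 9.55 CPM, a log2 fold change of 0.64 (SE 0.74). Leaving out β1-WT-GFP culture C, Matn2 (1.65, unadjusted p 0.0486) and Spp1 (−3.70, unadjusted p 0.0449) were called in the same edgeR test.

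Spread inside a group was described by counting genes. In β1-WT-GFP cells, culture A was at least 2-fold apart from B in 3 of 32 genes (9.38%) and from C in 20 (62.5%), and B was from C in 22 (68.8%), beside the 2.14%, 25.9% and 24.4% given above for all tested genes. In β1-K794Q-GFP cells, culture A was as far from B in 23 genes (71.9%) and from C in 10 (31.2%), and B was from C in 21 (65.6%), against 19.2%, 9.55% and 24.2% of all tested genes. β1-WT-GFP culture C was at least 4-fold above both others of its group in 12 of 32 genes (37.5%), against 3.42% of all tested genes: Bgn, Ecm1, Efemp1, Emilin2, Fbln2, Fbn1, Fn1, Igfbp7, Lamb1, Nid1, Thbs1 and Thbs2. It was at least 4-fold below both in 3 (9.38%, against 3.57%): Agrn, Spp1 and Vcan. β1-WT-GFP culture C was the highest of all 6 cultures in 15 of 32 genes (46.9%), against 26% of all tested genes. β1-K794Q-GFP culture B was at least 4-fold above both others in 5 genes (15.6%, against 1.64%), namely Bgn, Ecm1, Efemp1, Fbln2 and Nid2. It was at least 4-fold below both in 6 (18.8%, against 4.1%), namely Eln, Fbn1, Ltbp4, Tgfbi, Thbs2 and Vcan. No floor on counts was applied, and some entries rest on few counts. In β1-K794Q-GFP cells Efemp1 had 0, 4 and 0 counts, Vcan 11, 1 and 10, and Fbn1 9, 0 and 89. In β1-WT-GFP cells Thbs2 had 2, 0 and 16. These counts describe single cultures, and what set them apart was not tested.

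**Figure D5:**
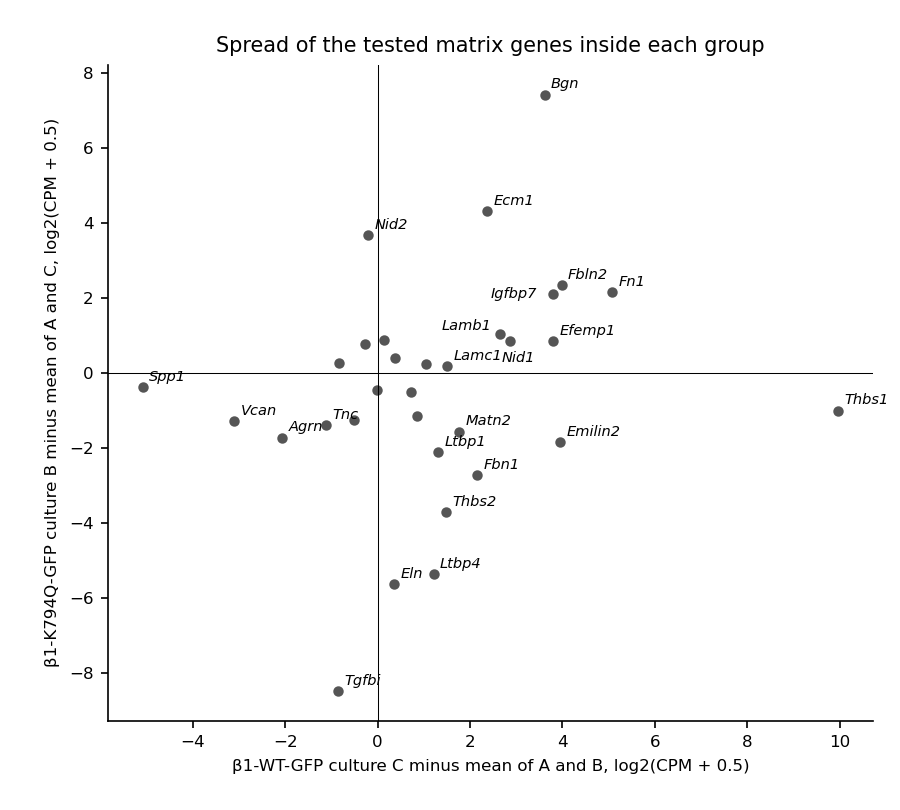
Each tested matrix gene by how far β1-WT-GFP culture C lies from the mean of A and B (horizontal axis) and β1-K794Q-GFP culture B from the mean of A and C (vertical axis), both as differences in log2(normalized CPM + 0.5). Genes such as Thbs1 and Fn1 lie far to the right, Bgn lies high on both axes, and Tgfbi and Eln lie at the bottom.

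Summed over the 49 genes, the matrix transcripts made 7821, 7821 and 23486 CPM in β1-WT-GFP and 7860, 12550 and 9115 CPM in β1-K794Q-GFP cells. The ratio of the means was 0.755, with overlapping groups (exact permutation test, two-sided, p = 1), and 1.26 without β1-WT-GFP culture C. They took 0.819, 0.816 and 2.21% of all counts in β1-WT-GFP and 0.800, 1.14 and 0.957% in β1-K794Q-GFP cells. Fn1 alone made 2.22, 2.19 and 24.8% of the matrix counts in β1-WT-GFP and 3.72, 13.8 and 5.79% in β1-K794Q-GFP cells, and Thbs1 made 13.9% in β1-WT-GFP culture C. Without Fn1 and Thbs1 the sums were 7645, 7645 and 14392 CPM against 7565, 10805 and 8526 CPM.

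The 17 genes under the filter fell into those without a count and those with a few. No count was found in any culture for 8 genes: Frem1, Lum, Mgp, Mmrn1, Postn, Sparcl1, Thbs4 and Vtn, the last of which encodes vitronectin, a plasma protein made in the liver. At most 9 counts per culture were found for the other 9, Lama1, Lama2, Lamc3, Thbs3, Fbln1, Fbn2, Efemp2, Ltbp2 and Fras1. Such levels were left out of the main test. In the fit without a filter, 6 of 41 matrix genes were called, against 5.73% of all tested genes, and Efemp2 was the only called gene of the 17.

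Further matrix genes and the receptors were described from lists written from general knowledge, but with earlier results of these data known. The receptor list holds Itga1, Itga2 and Itgb4, which the paper already reports as increased in the K794Q cells. The shares called are therefore descriptive only. Of 90 other secreted matrix and matrix-associated genes 30 were tested, and 7 were called (23.3%, against 5.19% of all tested genes). None of them passed the adjusted threshold in edgeR's quasi-likelihood test. An unadjusted p no higher than 0.05 was found in 7, against 1180 of all 11608 tested genes. The adjusted threshold was passed by 5 with DESeq2 and by 4 with the likelihood ratio test, where the share of all tested genes is not given here. Gas6, a ligand of TAM receptors, rose, and Nov, Tsku, Slit2, Slit3, Bmper and Igfbp5 fell. Igfbp5 had 1743, 1575 and 0.348 CPM in β1-WT-GFP and 7.61, 3.16 and 6.19 CPM in β1-K794Q-GFP cells, so that β1-WT-GFP culture C lay below every β1-K794Q-GFP culture. Slit2 had 18.5, 25.8 and 203 CPM against 19.4, 6.51 and 6.62 CPM, with overlapping groups and its highest level in β1-WT-GFP culture C. Nov, which encodes the matricellular protein CCN3, had 33.9, 44.9 and 71.2 CPM against 12.2, 7.80 and 9.37 CPM, a log2 fold change of −2.35 (SE 0.35). Of 39 matrix receptor genes 32 were tested and 4 called (12.5%), with Itga1, Itga2 and Itgb4 higher and the glypican gene Gpc4 lower in β1-K794Q-GFP cells. Itgb4, for the Integrin chain that pairs with α6 in a laminin receptor, had 11.98, 14.3 and 8.22 CPM against 109, 101 and 127 CPM. It was the one gene of these 3 lists past the adjusted threshold, with a log2 fold change of 3.29 (SE 0.26) and an adjusted p of 0.0198 in edgeR's test.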

How the data were processed

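The authors deposited raw read counts for each mouse gene symbol in 6 cultures, without normalization, with 0 further columns of per-sample values. The submitters' processing notes name bcl2fastq 2.20.0, STAR 2.7.4a, HTSeq 0.9.1, edgeR 3.38.4 and mm10; whether counting used strand is not given in the sources used here. Reads shared with near-identical copies may be split or lost by such counting. The study describes more than 1 sequencing run, and the run behind the table is not given there.

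Here edgeR 4.0.16 in R 4.3.3 was used: filterByExpr left 11608 genes, TMM scaled the libraries, and a quasi-likelihood F-test compared the groups (common dispersion 0.186, Benjamini-Hochberg adjustment over all tested genes). Calls used the study's thresholds, a fold of 2 or more and an unadjusted p no higher than 0.05. Dividing the absolute log2 fold change by the square root of F gave its SE. Sums and shares were compared with two-sided exact permutation tests over 3 cultures against 3, whose smallest p is 0.1. Positions and exon lengths came from GENCODE M21 by symbol, 21777 direct and 1262 by synonym, with all 49 genes matched. Genes are named because they belong to the 49, or were called in the other lists. The members and lists were chosen with earlier results of these data known. Alternatives were no filter, at least 10 counts in every culture, RLE scaling, DESeq2 1.42.0, the likelihood ratio test, the culture letter as a block, subtracting the median log2 fold change of the neighbouring genes, and leaving out each culture; leaving out β1-WT-GFP culture C and β1-K794Q-GFP culture B together was added after seeing the data. Simulated counts with known changes were used to test the main edgeR fit only. They were drawn at the common dispersion for all genes, without a culture set apart from its group. They therefore cannot show how the fit behaves for matrix genes in which single cultures stand apart. Python 3.11.15 (scipy 1.17.1, numpy 2.4.6, pandas 2.3.3, matplotlib 3.10.9) was used for tables, permutation tests and figures.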

Additional observations from a re-analysis of the deposited data

How the results depend on the processing

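With 3 cultures a group and totals of 9589826 to 15287191 counts, matrix genes under the filter had at most 9 counts in any culture. Comparisons at such levels rest on few counts. Fbln5, Emilin1, Efemp1 and Vcan passed both thresholds in all 6 fits that left out 1 culture, and Fbln2 in 5 of 6. The number of matrix genes past both thresholds was 5 of 32, where 5.19% of all tested genes passed. It was 2 of 21 with at least 10 counts in every culture (4.03% of all tested genes). These were Emilin1 and Fbln5, since the falling genes lack that many. DESeq2 called 3 (5.99%) and gave no p for 8 genes, Fbln2 and Efemp1 among them. Without β1-WT-GFP culture C and β1-K794Q-GFP culture B together, a choice made after seeing the data, 12 were called (14.2%). Without a filter 6 of 41 were called (5.73%), with Efemp2 added, and with the likelihood ratio test 7 (6.26%). Leaving out 1 culture gave 5 to 8 (4.21 to 8.38% of all tested genes). The 8 came from the omission of β1-WT-GFP culture C (8.38%) and 7 from that of β1-K794Q-GFP culture B (7.95%). After adjustment, 0 became 4 with DESeq2, 5 with the likelihood ratio test, 11 without both cultures, and 0 to 1 when 1 culture was left out. Of all tested genes 0.181% passed that threshold in the main fit, and the share in the other fits is not given here. The median log2 fold change of −0.38 was −0.76 without a filter, 0.039 with at least 10 counts, 0.23 without both cultures, and −0.71 to 0.62 when 1 culture was left out. Leaving out 1 culture gave 4 to 8 called genes in the other matrix list and 1 to 10 among the receptors, against 4.21 to 8.38% of all tested genes. The ratio of summed CPM was then 0.629 to 1.26, and the difference in the Lamb2 share 7.08 to 29.2 percentage points. The cause of these shifts was not tested.

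Cultures with the same letter correlated at 0.109 (A), 0.0550 (B) and 0.102 (C) in their deviations from the group means. Pairs with different letters correlated at −0.162 to 0.113. The labels do not say what a shared letter stands for, and correlations this small cannot decide whether cultures were paired. With the letter as a block 5 genes were called, with Spp1 in and Fbln2 out (log2 fold change −4.17, unadjusted p 0.0595 in edgeR's test), 0 after adjustment, with a median of −0.45 and 571 calls over all genes. The block reversed Fn1 to 0.43, Lama4 to −0.0066, Eln to −0.95 and Ecm1 to −0.80.

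Leaving out 1 culture changed the sign of 18 of the 32 genes, with log2 fold changes from −7.22 to 0.56 for Bgn, −2.29 to 1.83 for Ecm1, −1.69 to 1.42 for Eln, −3.32 to 1.95 for Emilin2, −2.88 to 1.20 for Fbn1, −2.34 to 2.31 for Fn1, −2.39 to 1.35 for Igfbp7, −0.26 to 0.21 for Lama4, −0.080 to 0.21 for Lama5, −1.73 to 0.19 for Lamb1, −0.71 to 0.27 for Lamc1, −0.23 to 0.74 for Ltbp1, −0.50 to 0.21 for Ltbp3, −1.39 to 0.68 for Nid1, −0.030 to 2.76 for Nid2, −0.21 to 0.32 for Sparc, −0.90 to 0.19 for Tgfbi and −7.58 to 3.00 for Thbs1. Of the called genes Efemp1 moved from −11.05 to −4.80, Fbln2 from −6.83 to −2.65, Vcan from −5.60 to −4.60, Fbln5 from 1.83 to 2.53 and Emilin1 from 1.12 to 1.62; the lowest value of Efemp1, without β1-K794Q-GFP culture B, leaves that group at 0 counts and is no bound. Without both cultures Fn1 was 1.26, Lama4 −0.34, Lamc1 0.21, Nid1 0.35, Nid2 −0.088, Sparc −0.15, Thbs1 3.45, Fbn1 1.78, Emilin2 2.45, Ltbp3 0.51, Ltbp4 0.26, Igfbp7 0.27 and Ecm1 −0.99. Subtracting the neighbours' median turned Lama4 to −0.042 and Lamc1 to 0.23.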
